A study of Homo sapiens with 6 samples.

Results

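The genes described here fold, modify and dispose of proteins in the endoplasmic reticulum (ER). They are 34 named genes: 5 chaperones and cofactors of the ER lumen, 2 lectin chaperones, 7 genes of disulfide formation, 4 stress sensors and transcription factors, 10 genes of ER-associated degradation, 5 genes of entry into and export from the ER, and WFS1. The rule takes them by symbol and uses no measured value, but the list was drawn up with earlier results of these data known. All 34 were found among the 78932 gene identifiers of each file, and all 34 passed the filter on low counts that left 17677 genes to test. RNA sequencing was done in Karpas-45, an established human T-lineage acute lymphoblastic leukemia line. The 3 control libraries came from cells with a scramble hairpin (genotype label WT), and the 3 compared libraries from cells with the hairpin shMEF2CKD2 (genotype label MEF2C KD), directed at the MADS-box transcription factor MEF2C. Both groups are labelled untreated leukemic blasts of bone marrow. The study's design text, which describes the lentiviral MEF2C vector only, says that it carried GFP and that GFP-positive cells were sorted 120 hours after transduction. All 6 libraries came from 1 cell line and 1 hairpin per group, and the labels call replicates technical, so the p-values below measure only the spread between such replicates.

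Proteins that enter the secretory pathway are threaded into the ER through the SEC61 channel and fold there with the help of HSP70-type and HSP90-type chaperones, lectins that read attached sugars, and enzymes that form and shuffle disulfide bonds. Proteins that fail are drawn back into the cytosol and degraded by the proteasome, a route built around the ligase SYVN1 and its partner SEL1L. When unfolded proteins accumulate, the sensors IRE1 (gene ERN1), ATF6 and PERK start the unfolded protein response, in which cleaved ATF6 and spliced XBP1 raise chaperone and degradation genes through short promoter elements, among them ERSE and ERSE-II. Antigen receptor assembly makes T-lineage cells users of the same machinery.

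Those elements are shown first, because some genes that carry them are among the largest decreases described below. Of the genes called higher, only CANX was found to carry one, PDIA6 and ERO1A carried none, and the others had no promoter entry. ERSE is CCAAT and CCACG with 9 bases between them, and ERSE-II is ATTGG and CCACG with 1 base between them. Exact matches on either strand were sought in the RefSeq window of 250 bases before to 50 after each gene start (GRCh38.p14), which was at hand for 29 of the 34 genes. PDIA3, DERL1, DERL3, SPCS1 and SEC24D had no entry. ERSE was found in 7 of the 29 (24.1%), namely HSPA5, HSP90B1, CALR, CANX, ERO1B, CRELD2 and XBP1, against 22 of 27305 promoters in the whole table (0.0806%). ERSE-II was found in 3 of the 29 (10.3%), HYOU1, SDF2L1 and HERPUD1, against 15 of 27305 (0.0549%). Both elements are known from genes of this very kind, so their presence is background and not a finding of these data. In the promoters of 119 further ER genes, described below, neither element was found as an exact match. Stretches around the matches are given 5′ to 3′ on the strand of the gene, with the element in capitals, for the 7 genes in which no annotated exon overlaps the stretch.
HSPA5: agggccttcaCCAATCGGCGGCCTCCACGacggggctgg
CALR: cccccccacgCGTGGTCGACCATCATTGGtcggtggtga
CRELD2: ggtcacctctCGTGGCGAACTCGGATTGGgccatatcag
ERO1B: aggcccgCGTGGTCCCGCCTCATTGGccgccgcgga
HERPUD1: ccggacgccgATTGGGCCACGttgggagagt
SDF2L1: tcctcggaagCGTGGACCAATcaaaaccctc
HYOU1: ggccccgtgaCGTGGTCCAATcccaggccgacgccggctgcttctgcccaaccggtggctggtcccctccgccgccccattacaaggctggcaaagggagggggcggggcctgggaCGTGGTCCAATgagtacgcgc

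The HSPA5 stretch lies at chr9:125241381-125241419 on the minus strand, HERPUD1 at chr16:56932015-56932045 on the plus strand and HYOU1 at chr11:119057264-119057400 on the minus strand. The others lie at chr19:12938374-12938412 (CALR, plus), chr22:49918544-49918582 (CRELD2, plus), chr1:236282173-236282208 (ERO1B, minus) and chr22:21642104-21642134 (SDF2L1, plus). In HSPA5, HERPUD1 and one of the 2 HYOU1 elements the match starts 66, 117 and 79 bases before the gene start. The XBP1 binding core UPRE (TGACGTG) was found only in HYOU1 among the 29 genes (3.45%, against 2.00% of all promoters), where it overlaps the farther ERSE-II by part of its letters. A MEF2 site was found only in EDEM2 among them (3.45%, against 3.09% of all promoters). A match is a description of letters and does not show that a factor binds.

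MEF2C itself had 2, 1 and 0 reads with the scramble hairpin (replicates 1 to 3) and 2, 0 and 0 with its own. All lie under a floor of 3 reads, so it was not detectable at this depth and could not check the labels. Gene reads per library ran from 45560303 to 97077335. Of 14 T-lineage markers all were tested, and CD3E, LCK and TCF7 measured 593, 822 and 1313 CPM (counts scaled per megaread of gene reads) in scramble libraries. Others were far lower there, with CD5, DNTT, CD2 and RAG1 at 8.74, 4.54, 2.73 and 0.741 CPM. Of these 14 markers 9 were higher and none lower in MEF2C hairpin libraries, beside 13.5% and 15.3% of all tested genes. The 9 increases were unlike in size, with log2 fold changes (MEF2C hairpin over scramble) from 0.06 for TCF7 to 1.27 for DNTT. The summed level of 8 plasma cell markers, a cell type rich in ER chaperones, ran from 19.7 to 21.1 CPM in scramble and from 20.7 to 21.7 CPM in MEF2C hairpin libraries, nearly all of it MZB1, and TNFRSF17 had 0 reads in scramble libraries. Summed B cell markers (6 genes) ran from 3.03 to 3.60 and from 4.03 to 4.18 CPM, and summed myeloid markers (7 genes) measured 2.00 ± 0.223 and 2.08 ± 0.453 CPM (SD, n = 3 each). Summed markers of embryonic kidney cells (8 genes), in which the virus was made, ran from 24.6 to 26.3 and from 26.9 to 28.3 CPM, with EPCAM and LHX1 at 0 reads in every library. Most of that sum was PODXL, which was higher (21.6 and 24.0 CPM), as was GPC3 (0.341 and 0.660 CPM), while CRABP2 was lower (2.93 and 2.04 CPM). Reads outside annotated genes took 11.3% to 11.6% in scramble and 11.9% to 12.5% in MEF2C hairpin libraries, and the part of these shifts in the results was not tested. In bulk RNA, fewer cells that express a gene and less of its RNA per cell cannot be told apart.

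Of the 34 genes, 11 were lower and 6 higher in MEF2C hairpin libraries (edgeR quasi-likelihood test, adjusted p under 0.05 over all tested genes), where 15.3% of all tested genes were called lower, 13.5% higher and 28.8% in either direction. These genes are well expressed, and among well expressed genes more were lower: 45.1% of all genes at 100 to 500 scramble CPM were called lower and 11.6% higher, and 23.0% lower and 16.8% higher at 20 to 100 CPM. Weighting each CPM class by its number of ER genes gave a background of 30.8% lower and 14.0% higher, beside 32.4% and 17.6% of the ER genes. In 14 of the 34 all MEF2C hairpin libraries lay below all scramble libraries and in 6 above, against 20.5% and 19.5% of all tested genes. These shares were 29.9% and 20.4% at 20 to 100 scramble CPM, 49.6% and 14.2% at 100 to 500 CPM, and 64.0% and 11.6% at 500 CPM and over. The count of calls was thus near that of genes of like level. The median log2 fold change (log2FC, MEF2C hairpin over scramble) of the 34 genes was -0.03, against 0.00 over all tested genes, and after subtracting the median of each gene's own CPM class it was 0.00. A normalization that removes the trend with level (cyclic loess, tested with limma) left 4 of the 34 lower and 8 higher. Over all tested genes the balance moved the same way. With cyclic loess 4641 genes were called, 52.3% of them higher, against 5097 genes and 46.8% in the main fit. What set single genes apart was size: 4 genes fell by 16.1% to 22.0%, and their calls, with the increases of PDIA3 and ERO1A, were kept under all 15 alternatives.

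**Figure D1:**
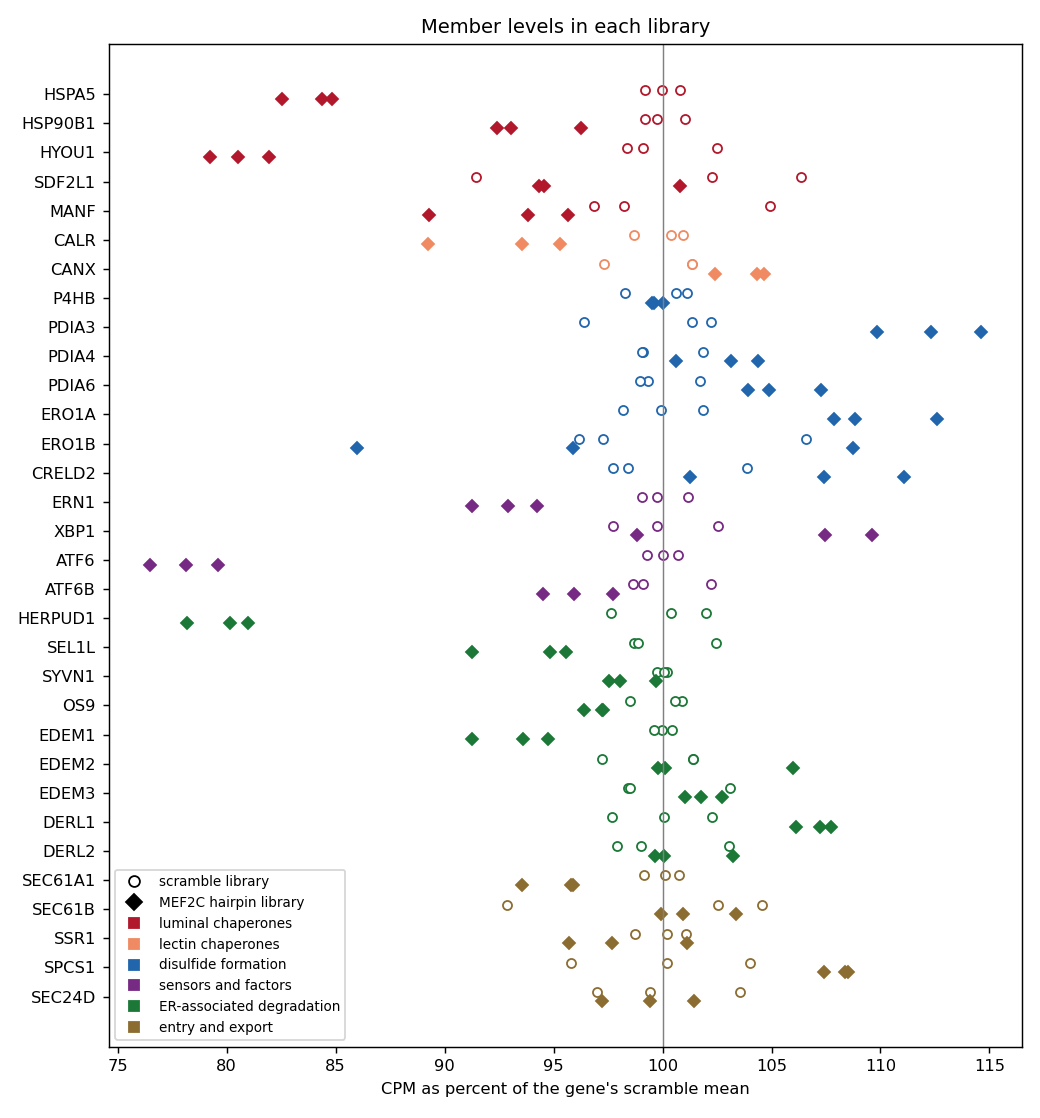
CPM of 32 ER genes in each library as a percentage of the gene's scramble mean (x axis), with 1 row per gene, open circles for the 3 scramble libraries and filled diamonds for the 3 MEF2C hairpin libraries, coloured by role. HSPA5, HYOU1, ATF6 and HERPUD1 lie far to the left of their scramble libraries, PDIA3 and ERO1A to the right, and WFS1 and DERL3, both under 1 CPM, are not drawn.

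Of the 5 chaperones and cofactors of the ER lumen, 4 were lower. HSPA5 (BiP), the ER's HSP70 chaperone and the protein that holds the stress sensors inactive, measured 629, 639 and 634 CPM in scramble replicates 1 to 3 and 523, 535 and 538 CPM in MEF2C hairpin replicates 1 to 3. The lowest scramble library lay 17.0% above the highest MEF2C hairpin library. The log2FC was -0.25 (SE 0.0196, edgeR adjusted p = 5.08e-13), and 4.40% of the 250 genes at 500 CPM and over had a lower value. HYOU1, a large HSP70-like protein that releases nucleotide from HSPA5, measured 338, 353 and 341 CPM and then 282, 277 and 273 CPM. Its groups were as clearly apart, with a log2FC of -0.31 (SE 0.0220, edgeR adjusted p = 4.78e-14), and 2.15% of the 2331 genes at 100 to 500 CPM had a lower value.

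The other 3 luminal members differed less. HSP90B1 (GRP94), the ER's HSP90, measured 483, 474 and 476 CPM and then 441, 460 and 444 CPM, a log2FC of -0.09 (SE 0.0207, edgeR adjusted p = 0.000752). The groups did not overlap, but the value is close to the -0.05 median of its CPM class, and 35.1% of that class had a lower one. The call was lost with cyclic loess (-0.02) and when GC content and length were corrected for. MANF, a secreted stress protein that binds HSPA5, went from 52.2 ± 2.26 to 48.5 ± 1.71 CPM (SD, n = 3 each; log2FC -0.10, SE 0.0394, edgeR adjusted p = 0.0475), a call lost in 10 of 15 alternatives. SDF2L1, part of an ER chaperone complex, measured 15.8 ± 1.22 and 15.2 ± 0.577 CPM (SD, n = 3 each) and overlapped between groups (log2FC -0.06, edgeR adjusted p = 0.580). With the correction for GC content and length it was lower, at -0.19 (edgeR adjusted p = 0.0198). DESeq2 and limma-voom each called 3 of these 5 genes lower, and none was called higher by either tool, by edgeR or at an unadjusted p under 0.05. Among all genes of the same CPM classes 36.1% were called lower and 14.5% higher. Together they took 1517 to 1535 CPM in scramble and 1312 to 1336 CPM in MEF2C hairpin libraries, and the groups did not overlap.

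The lectin chaperones went in opposite directions. CALR (calreticulin), the soluble lectin of the lumen, measured 342, 348 and 350 CPM and then 324, 330 and 309 CPM (log2FC -0.11, SE 0.0227, edgeR adjusted p = 0.000262). CANX (calnexin), its membrane-bound relative, measured 845, 845 and 811 CPM and then 854, 870 and 872 CPM (log2FC 0.05, SE 0.0197, edgeR adjusted p = 0.0354). Neither gene overlapped between groups, though for CANX the gap was 1.04%. The CALR call was lost with cyclic loess, where its value was -0.04, and the CANX call was lost in 5 of 15 alternatives, among them without scramble replicate 3, MEF2C hairpin replicate 2 or MEF2C hairpin replicate 3. Among genes at 500 CPM and over, 88.8% had a lower value than CANX.

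Of the 7 genes of disulfide formation, 3 were higher and the other 4 did not pass the test. PDIA3 (ERp57), the disulfide isomerase that works with the lectin chaperones and in MHC class I loading, measured 249, 251 and 236 CPM and then 281, 275 and 269 CPM. All MEF2C hairpin libraries lay above all scramble libraries, with a log2FC of 0.17 (SE 0.0237, edgeR adjusted p = 5.67e-07). Exons of ELL3, CATSPER2P1 and 1 unnamed gene cover 18.9% of its exonic bases. Its pseudogene PDIA3P1 received at most 24 reads in a library, and its reads summed over all libraries were 0.0882% of those of PDIA3. ERO1A, the oxidase that recharges the isomerases, measured 142, 137 and 139 CPM and then 150, 151 and 157 CPM, again without overlap (log2FC 0.13, SE 0.0254, edgeR adjusted p = 7.63e-05). Of the genes at 100 to 500 CPM, 96.8% had a lower value than PDIA3 and 95.2% a lower value than ERO1A.

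PDIA6, another isomerase, measured 176, 175 and 180 CPM and then 186, 184 and 190 CPM (log2FC 0.07, SE 0.0237, edgeR adjusted p = 0.0152). Leaving out scramble replicate 2, or MEF2C hairpin replicate 3, ended the call, and exons of ATP6V1C2 cover 25.2% of its exonic bases. P4HB, the archetypal disulfide isomerase and a subunit of prolyl hydroxylase, measured 394 ± 5.98 and 393 ± 1.10 CPM (SD, n = 3 each). Its log2FC was -0.00 (SE 0.0204, edgeR adjusted p = 0.919), but it passed the threshold in opposite directions under 2 alternatives, at 0.06 with cyclic loess and at -0.05 with the GC and length correction. PDIA4 measured 135 ± 2.15 and 139 ± 2.58 CPM, CRELD2, a stress-induced protein with isomerase-like activity, 28.5 ± 0.960 and 30.4 ± 1.42 CPM, and ERO1B, the paralog of ERO1A, 4.27 ± 0.244 and 4.14 ± 0.488 CPM (SD, n = 3 each), none past the threshold, although PDIA4 was higher with cyclic loess (0.08, limma adjusted p = 0.0171). Of the 7 genes 0 were called lower, also 0 at an unadjusted p under 0.05, with DESeq2 and with limma-voom. Among all genes of the same CPM classes 36.0% were called lower and 12.7% higher. Their summed level ran from 1119 to 1128 CPM in scramble and from 1175 to 1185 CPM in MEF2C hairpin libraries.

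**Figure D2:**
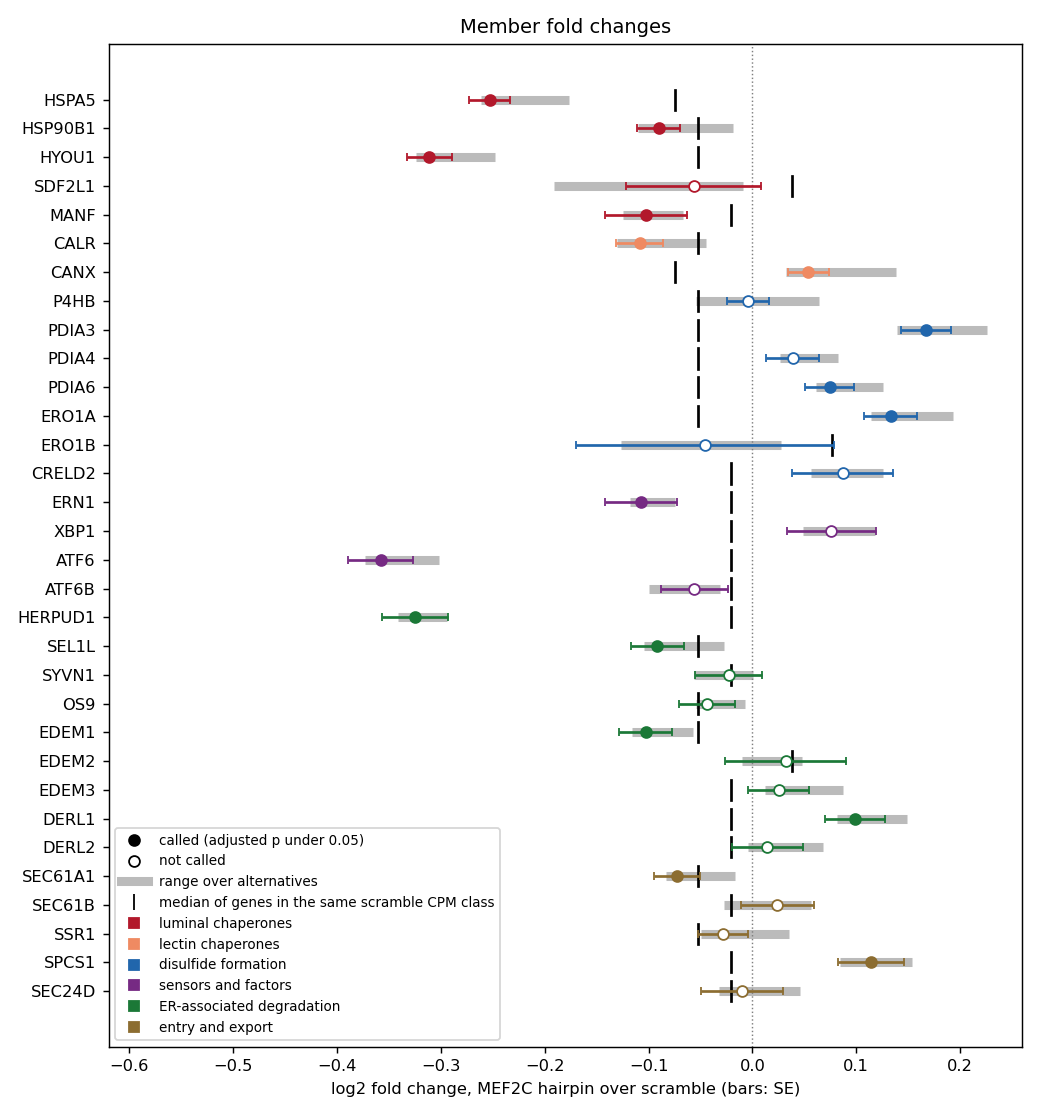
Log2 fold change (log2FC) of 32 ER genes, MEF2C hairpin over scramble (x axis, bars are SE), with filled points past the threshold, grey bands for the range over the 15 alternatives and black ticks for the median of all tested genes in the same scramble CPM class. ATF6, HERPUD1, HYOU1 and HSPA5 lie left of -0.2 with bands that stay left of their class medians, and PDIA3 and ERO1A lie furthest right.

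Among the sensors, ATF6 stood out. ATF6, the membrane-tethered factor that is cut free in the Golgi and then switches on chaperone genes, measured 86.2, 86.8 and 85.6 CPM in scramble and 68.6, 65.9 and 67.3 CPM in MEF2C hairpin libraries. The lowest scramble library was 24.7% above the highest MEF2C hairpin library, the widest gap among the 34 genes. Its log2FC of -0.36 (SE 0.0310, edgeR adjusted p = 8.73e-12) was also the largest decrease among the called members, and 1.18% of the 5011 genes at 20 to 100 CPM had a lower one. The gene (ENSG00000118217.7) lies on the plus strand of chromosome 1 from 161766294 to 161964070 in GRCh38, and no annotated exon of another gene overlaps its exons. Its paralog ATF6B measured 74.1 ± 1.45 and 71.2 ± 1.19 CPM (SD, n = 3 each; log2FC -0.06, SE 0.0319, edgeR adjusted p = 0.207), with groups apart by 0.944% only. It was lower with the GC and length correction, at -0.10 (edgeR adjusted p = 0.0107).

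ERN1, which encodes the kinase and RNase IRE1, measured 58.6, 59.9 and 59.0 CPM and then 54.0, 55.0 and 55.8 CPM. The groups were apart by 5.15%, with a log2FC of -0.11 (SE 0.0349, edgeR adjusted p = 0.0170), and the call was lost in 5 of 15 alternatives: without scramble replicate 2, MEF2C hairpin replicate 1 or MEF2C hairpin replicate 2, with cyclic loess and with the correction for GC content and length. XBP1, whose mRNA IRE1 splices, measured 40.6, 41.8 and 39.8 CPM and then 40.3, 43.8 and 44.7 CPM. The groups overlapped (log2FC 0.08, SE 0.0426, edgeR adjusted p = 0.199), and the gene was higher with the GC and length correction, at 0.12 (edgeR adjusted p = 0.0265). Counts per gene hold both splice forms of XBP1 in 1 value, so the active form was not measured.

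Of the 10 degradation genes, HERPUD1 changed most. HERPUD1, an ER membrane protein with a ubiquitin-like domain that joins the SYVN1 complex and is itself a classic stress target, measured 79.8, 83.3 and 82.1 CPM and then 66.2, 65.5 and 63.9 CPM. The groups were apart by 20.6%, with a log2FC of -0.32 (SE 0.0319, edgeR adjusted p = 2.11e-10), and 1.70% of genes at 20 to 100 CPM had a lower value. HERPUD1 (ENSG00000051108.15) lies on the plus strand of chromosome 16 from 56932048 to 56944863, free of other annotated exons. The core of the complex differed less. SEL1L, the adaptor of the ligase, went from 160 ± 3.38 to 150 ± 3.67 CPM (SD, n = 3 each; log2FC -0.09, SE 0.0253, edgeR adjusted p = 0.00503), a call lost with cyclic loess, with the GC and length correction and without MEF2C hairpin replicate 1. SYVN1 (HRD1), the ligase itself, measured 66.1 ± 0.159 and 65.1 ± 0.745 CPM (SD, n = 3 each), with an edgeR adjusted p of 0.665.

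The factors that hand over misfolded glycoproteins changed in a mixed way. EDEM1, a mannosidase-like factor, measured 133, 133 and 134 CPM and then 126, 121 and 125 CPM (log2FC -0.10, SE 0.0255, edgeR adjusted p = 0.00176), a call lost with cyclic loess and with the GC and length correction. Its relatives EDEM2 and EDEM3 measured 17.6 ± 0.426 and 88.1 ± 2.37 CPM (SD, n = 3) with scramble and 17.9 ± 0.616 and 89.7 ± 0.748 CPM (SD, n = 3) with the MEF2C hairpin, and neither passed the threshold, although EDEM3 was higher with the GC and length correction (0.09, edgeR adjusted p = 0.0123, against 0.03). The lectin OS9 measured 109 ± 1.42 and 106 ± 0.550 CPM (SD, n = 3 each), with an edgeR adjusted p of 0.244. DERL1, of the derlin channel family, went the other way, with 85.3, 87.4 and 89.3 CPM and then 93.6, 94.1 and 92.7 CPM (log2FC 0.10, SE 0.0291, edgeR adjusted p = 0.00853), and this call was lost without scramble replicate 1. DERL2 measured 62.2 ± 1.68 and 62.8 ± 1.21 CPM (SD, n = 3 each), and DERL3 lay between 0.152 and 0.655 CPM in all libraries, with exons of SMARCB1 over 77.0% of its exonic bases.

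Of the 5 genes of entry and export, 1 was lower and 1 higher, beside 31.9% and 14.7% of all tested genes in the same CPM classes. SEC61A1, the pore of the translocon, measured 237, 240 and 239 CPM and then 223, 229 and 229 CPM (log2FC -0.07, SE 0.0222, edgeR adjusted p = 0.0109). Its call was lost with cyclic loess (-0.02), without scramble replicate 2 and without MEF2C hairpin replicate 1. SPCS1, a subunit of the signal peptidase, measured 75.8, 82.4 and 79.4 CPM and then 85.0, 85.8 and 85.9 CPM (log2FC 0.11, SE 0.0315, edgeR adjusted p = 0.00487), but exons of GLT8D1 and NEK4 cover 58.1% of its exonic bases and the call was lost without scramble replicate 1. SEC61B, the small pore subunit, measured 76.4 ± 4.77 and 77.4 ± 1.35 CPM, the translocon-associated SSR1 204 ± 2.40 and 200 ± 5.57 CPM, and the COPII coat gene SEC24D 45.8 ± 1.51 and 45.5 ± 0.967 CPM (SD, n = 3 each), none past the threshold. WFS1, an ER membrane protein mutated in Wolfram syndrome, measured 0.391 ± 0.147 and 0.217 ± 0.0713 CPM (SD, n = 3 each) and overlapped between groups (log2FC -0.83, SE 0.452, edgeR adjusted p = 0.181). Of the 6 higher calls, 3 fell on genes with over 10% of exonic bases covered by other genes (PDIA3, PDIA6 and SPCS1). Of the 17 genes not called, 3 were over 10% as well. The 11 lower calls fell on genes with at most 9.95% covered, just under that cut. The share over all tested genes was not taken, and the part of such overlap in the calls was not tested.

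**Figure D3:**
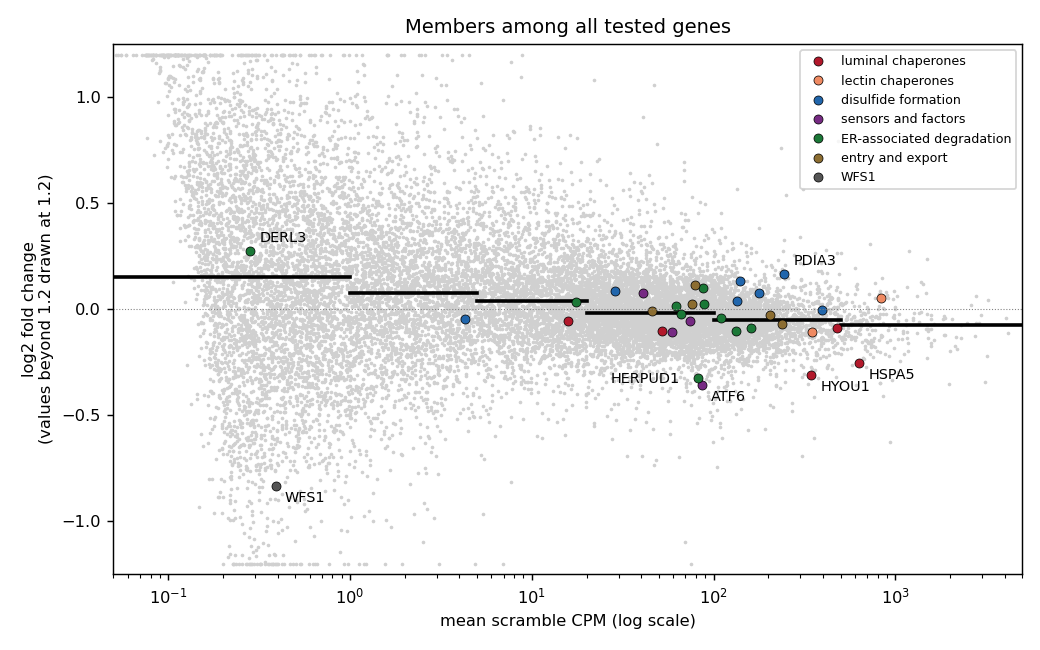
Log2FC (y axis) against mean scramble CPM (x axis, log scale) for the 17677 tested genes in grey, the 34 ER genes coloured by role, and black lines for the median of each scramble CPM class. The class medians go from 0.15 under 1 CPM to -0.07 at 500 CPM and over, and most ER genes lie close to those lines.

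Read per kilobase of exon, the same genes spanned a wide range of levels. The highest scramble levels were HSPA5 at 162 ± 1.31, CANX at 134 ± 3.12, CALR at 128 ± 1.48 and HSP90B1 at 102 ± 0.955 RPKM (CPM per kilobase of exon; SD, n = 3). In MEF2C hairpin libraries HSPA5 measured 136 ± 1.97 and CANX 139 ± 1.62 RPKM, so that the first and second places, well separated in scramble libraries, overlapped within their SD. CALR came next at 118 ± 3.99 RPKM. P4HB (74.3 ± 1.13), SEC61B (64.2 ± 4.01), PDIA3 (57.8 ± 1.82) and SEC61A1 (50.8 ± 0.407) followed in scramble libraries. Sensors were far lower, with ATF6B at 20.4 ± 0.399, XBP1 at 13.5 ± 0.324, ATF6 at 10.9 ± 0.0776 and ERN1 at 5.45 ± 0.0581 RPKM. At the bottom lay ERO1B at 0.796, WFS1 at 0.0867 and DERL3 at 0.0746 RPKM. Lengths are unions of all annotated exons, which makes the level of a gene with many rare exons look lower.

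**Figure D4:**
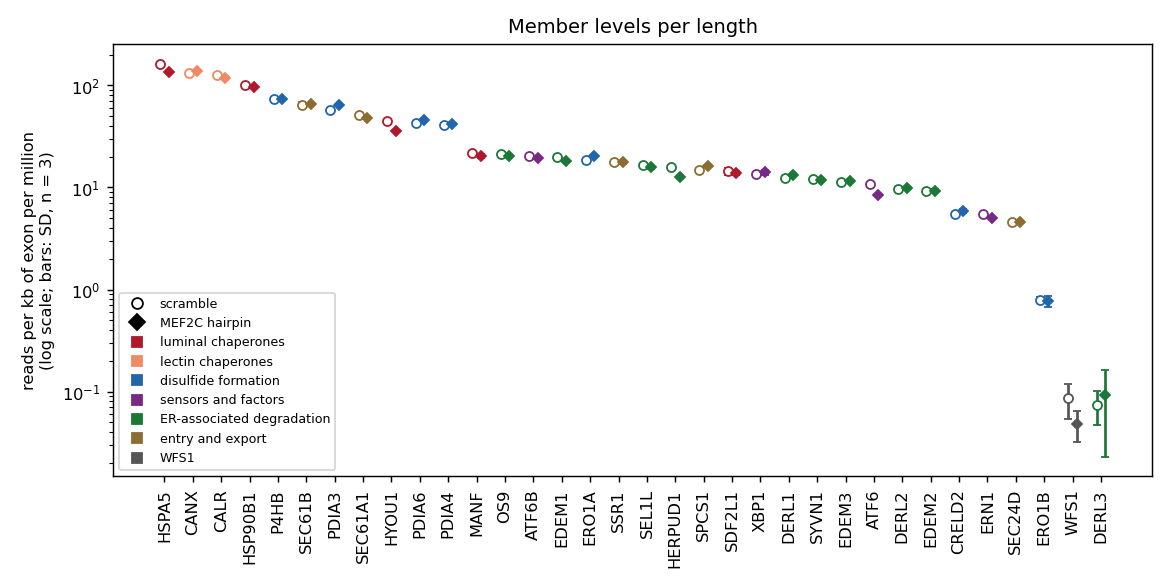
Level of the 34 ER genes in RPKM (y axis, log scale), as mean and SD of 3 libraries, ordered by scramble level, with open circles for scramble and diamonds for MEF2C hairpin libraries. HSPA5 leads in scramble libraries at 162 RPKM and lies beside CANX, at 136 and 139 RPKM, in MEF2C hairpin libraries, with ERO1B, WFS1 and DERL3 at the bottom.

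Set beside the promoter elements shown above, the 10 genes with ERSE or ERSE-II did not move as 1 group. Of these 10, 5 were lower and 1 higher, with a median log2FC of -0.07, and of the 19 genes with a listed promoter and neither element 6 were lower and 2 higher, with a median of -0.03. Over all tested genes 15.3% were lower and 13.5% higher. Of the 10, HSP90B1, HYOU1 and CALR lay at 100 to 500 scramble CPM, where 45.1% of all genes were lower and 11.6% higher. HSPA5 and CANX lay at 500 CPM and over, where 58.4% were lower and 10.8% higher. HERPUD1, XBP1 and CRELD2 lay at 20 to 100 CPM, with 23.0% lower and 16.8% higher. SDF2L1 lay at 5 to 20 CPM, with 8.66% lower and 21.8% higher, and ERO1B at 1 to 5 CPM, with 3.57% and 14.2%. The 3 genes with ERSE-II measured -0.32 (HERPUD1), -0.31 (HYOU1) and -0.06 (SDF2L1, not called) on the log2 scale. The 7 genes with ERSE ran from -0.25 (HSPA5) through CALR and HSP90B1 to 0.05 (CANX), 0.08 (XBP1) and 0.09 (CRELD2), the last pair not past the threshold. HERPUD1, HYOU1 and HSPA5, 3 of the 4 largest called decreases, carried an element, as did 10 of all 29 genes with a listed promoter. ATF6 carried none in this window. Of the 10 genes with an element 4 were not called. The 4 decreases were picked by their size, so the count of elements among them is a description, and a link was not tested.

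**Figure D5:**
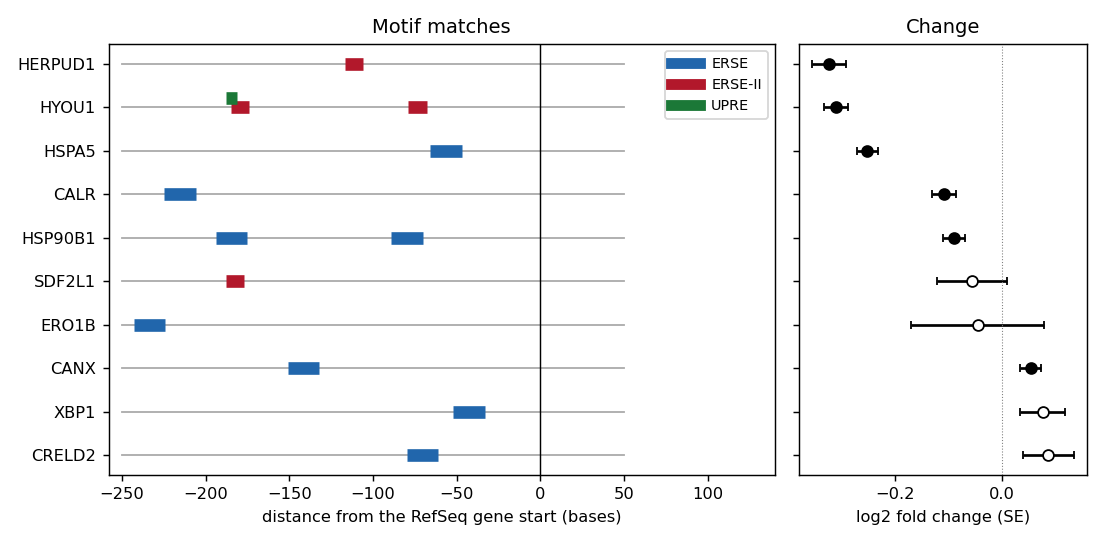
Left, exact matches of ERSE, ERSE-II and UPRE in the window from 250 bases before to 50 after the RefSeq start of the 10 ER genes that hold one (x axis in bases), and right, the log2FC of each gene with its SE (filled: past the threshold). From top to bottom the genes go from -0.32 (HERPUD1) to 0.09 (CRELD2), and the distance and kind of element vary along that order.

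A second list of 144 further ER genes gave the surroundings of these 34. Of the 137 that were tested, 28 were lower and 26 higher, their median log2FC being -0.03, the same as that of the 34 genes to 2 decimals. These are 20.4% lower and 19.0% higher, beside 27.5% and 15.3% of all tested genes in the same CPM classes. Of 9 J proteins and exchange factors, DNAJC3 (p58IPK), a stress-induced J protein, fell from 66.1 ± 2.06 to 58.0 ± 0.924 CPM (SD, n = 3 each; log2FC -0.19, SE 0.0346, edgeR adjusted p = 4.74e-05), whereas DNAJC10, a J protein with disulfide reductase activity, and HSPA13 were higher by 0.08 each. Among 17 other oxidoreductases and prolyl isomerases 4 were higher and 1 lower, beside 15.7% and 23.2% of all tested genes in the same CPM classes. TMX1 was at 0.11, with groups that overlapped, and ERP44 at 0.08. ERP29 was lower at -0.13, and exons of an unnamed gene cover 17.5% of its exonic bases. Of 6 tested glycan-trimming genes the glucosidase II subunit PRKCSH rose by 0.13 and the mannosidase MAN1A2 changed by -0.16.

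The oligosaccharyltransferase, which attaches the sugars that CALR and CANX read, had 6 of 11 genes higher (54.5%) and 1 lower (9.09%), beside 14.2% and 31.3% of all tested genes in the same CPM classes. TUSC3 rose from 24.6 ± 1.70 to 30.2 ± 1.28 CPM (SD, n = 3 each; log2FC 0.30, SE 0.0522, edgeR adjusted p = 1.83e-05) and the small subunit OST4 by 0.22, while the catalytic subunit STT3B measured -0.13. Exons of AGBL5 cover 21.0% of the exonic bases of OST4. Of further degradation factors 9 of 32 tested were lower and 0 higher, also 0 higher at an unadjusted p under 0.05, with DESeq2 and with limma-voom. The 28.1% lower is near the 27.2% of all tested genes in the same CPM classes, of which 15.5% were higher. Among them the conjugating enzyme UBE2G2 measured -0.19 (SE 0.0224, edgeR adjusted p = 2.03e-08) and the ligase MARCHF6 -0.18 (SE 0.0237, edgeR adjusted p = 8.51e-08). In the remaining translocon and signal peptide genes 5 of 21 were higher and 6 lower. Of all tested genes in the same CPM classes 14.3% were higher and 33.5% lower. SRP68, a subunit of the signal recognition particle, fell from 108 ± 0.372 to 74.5 ± 0.732 CPM (SD, n = 3 each; log2FC -0.54, SE 0.0284, edgeR adjusted p = 1.16e-17), and TRAM1 measured -0.26, beside TRAM2 at 0.26 and SRP14 at 0.21.

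Export and retrieval genes had 3 of 18 higher and 5 lower, beside 14.5% and 29.1% of all tested genes in the same CPM classes. The cargo receptor LMAN1 was at 0.10, its partner MCFD2 at -0.22, SEC24B at 0.09 and SAR1A at -0.09. Of 15 other sensors and effectors 3 were higher and 3 lower, beside 17.2% and 22.2% of all tested genes in the same CPM classes. CREB3L3 and CREB3L2, membrane-tethered factors of the same architecture as ATF6, rose from 13.9 ± 1.14 to 21.1 ± 0.763 CPM (log2FC 0.61, SE 0.0624, edgeR adjusted p = 5.33e-10) and from 26.0 ± 0.198 to 34.5 ± 0.233 CPM (log2FC 0.41, SE 0.0454, edgeR adjusted p = 3.84e-09; SD, n = 3 each). The ER membrane protein TMBIM6 measured -0.10 and PPP1R15A, a phosphatase subunit of the PERK arm, -0.17. The groups of PPP1R15A overlapped, at 27.1 to 29.9 CPM in scramble and 24.3 to 27.8 CPM in MEF2C hairpin libraries. Among 8 ER-phagy receptors ATL3 rose by 0.26 and RETREG2 by 0.10, and RTN3 measured -0.13. Of the companion genes named here, the calls of DNAJC10, HSPA13, TMX1, ERP44, SAR1A, SEC24B, TMBIM6, PPP1R15A and RETREG2 were each lost under at least 1 alternative.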

How the data were processed

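Total RNA was extracted with TRIzol and made into TruSeq libraries, per the labels' protocols. The submitters' processing notes name Trim Galore, STAR and HTSeq and the build hg38. Their versions, the annotation release and the strand setting are not given in the sources used here. Antisense and overlapping genes are therefore less certain. The authors deposited whole-number read counts per gene, 1 file per library. The 5 summary lines, 19.2% to 31.4% of reads, stayed out of library sizes and tests. They include reads aligned to several places, 3.56% to 6.86% but 16.1% in MEF2C hairpin replicate 3.

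Genes kept by filterByExpr (minimum count 10) were scaled by TMM and fitted with edgeR 4.0.16 under R 4.3.3, quasi-likelihood, robust, group as the only term. Standard errors (SE) were taken as the size of the log2FC divided by the root of the F statistic. Benjamini-Hochberg adjustment ran over 17677 genes. CPM uses TMM-scaled library sizes. Symbols were matched by Ensembl identifier without version. Positions, exon overlap and lengths are from GENCODE 29 (GRCh38), and promoters from RefSeq. The test was tried on simulated counts. Protein sequences were not used here. All 34 genes are named, and of each companion list the up to 2 higher and up to 2 lower genes with the smallest adjusted p. Members and lists were chosen with earlier results of these data known. Alternatives were DESeq2 1.42.0, limma 3.58.1 (voom, and trend after cyclic loess), other scalings and filters, a GC and length correction, a replicate block and leaving out each library.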

Additional observations from a re-analysis of the deposited data

How the results depend on the processing

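No called gene of the 34 changed direction under the 15 alternatives, and 4 lower (HSPA5, HYOU1, ATF6, HERPUD1) and 2 higher (PDIA3, ERO1A) calls were kept under all of them. The count of lower genes, 11, became 4 with cyclic loess, where 66.7% of calls were higher against 35.3%, and was 8 to 11 under the others. Over all tested genes 52.3% of calls were higher with cyclic loess, against 46.8% in the main fit. Without 1 library at a time, 8 to 11 were lower and 4 to 6 higher. The replicate numbers do not pair the libraries (correlations of same-numbered libraries -0.0135, -0.0137 and -0.00314), and a replicate block gave 5 higher and 11 lower. Of the 17 genes not called, 6 passed the threshold under an alternative: P4HB and PDIA4 (0.08) with cyclic loess, and SDF2L1 (-0.19), P4HB (-0.05), XBP1 (0.12), ATF6B (-0.10) and EDEM3 (0.09) with the GC and length correction. The log2FC of some genes not called changed sign. With upper-quartile scaling P4HB was at 0.00656 and SEC24D at 0.00102. With at least 1 CPM in 3 libraries they were at 0.00757 and 0.00203. With cyclic loess P4HB was at 0.065 (limma adjusted p = 0.0114), SYVN1 at 0.00020, DERL3 at -0.027, SSR1 at 0.026 and SEC24D at 0.00262. With the GC and length correction ERO1B was at 0.00979, EDEM2 at -0.010, SSR1 at 0.036 and SEC24D at 0.046. Without 1 library at a time the range was -0.016 to 0.0050 for P4HB, -0.127 to 0.028 for ERO1B, -0.00098 to 0.047 for EDEM2, -0.0040 to 0.038 for DERL2, -0.439 to 0.624 for DERL3, -0.028 to 0.057 for SEC61B and -0.032 to 0.015 for SEC24D. The cause was not tested. WFS1 and DERL3 are limited by depth, at under 1 CPM.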

Other observations

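Beyond the ER genes listed, 16 tested genes held an exact ERSE or ERSE-II in the same promoter window, of 26 tested genes with either element. Of the 16, 2 were lower and 1 higher, beside 15.3% and 13.5% of all tested genes, with a median log2 fold change of -0.02. Of these 16, FICD, which modifies HSPA5 by AMPylation, measured 0.25 (SE 0.108, edgeR adjusted p = 0.0888), and ALG12, a mannosyltransferase of glycan assembly which overlaps CRELD2, measured 0.13 (SE 0.0527, edgeR adjusted p = 0.0515). SERP1, a translocon-associated stress protein, measured -0.03 (SE 0.0223, edgeR adjusted p = 0.372). The increase was TMEM120A (0.33, SE 0.0802, edgeR adjusted p = 0.00147) and the decreases EIF2A (-0.09, SE 0.0255, edgeR adjusted p = 0.00722) and SHCBP1 (-0.15, SE 0.0303, edgeR adjusted p = 0.000146). These genes were chosen after the promoters had been searched.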
